A study of Mus musculus with 9 samples.

Results

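Wild-type mouse embryonic stem cells of 3 lines were compared gene by gene, with 2 libraries of the line labelled RGM on one side and 1 library each of V6.5 and of a line labelled Cas9-GFP on the other. These 4 libraries are the wild-type columns among the 9 of the deposited count table. The other 5 carry a Gzf1 knockout (2 of RGM and 3 of V6.5 cells) and served only to see whether the same genes differed in libraries that the main comparison did not use. Both RGM libraries carried the batch label run2 and the V6.5 and Cas9-GFP libraries the batch label run1. Line and run therefore coincide and cannot be told apart, and the labels do not state which step a run covers. V6.5 is a widely used hybrid mouse line. RGM and Cas9-GFP are given in the labels by name, with strain background, passage and clonal origin not given in the sources used here. All cells were kept on irradiated embryonic fibroblasts in serum medium with leukaemia inhibitory factor (LIF), and fibroblasts were depleted at harvest. Polyadenylated RNA was counted with MARS-seq2.0, which reads the 3′ ends of transcripts.

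Embryonic stem cells are taken from the inner cell mass of the blastocyst and can form all tissues of the embryo proper. LIF acts through STAT3 to hold up factors of the naive state, and FGF4 made by the cells themselves acts through ERK to move them towards the formative state that precedes lineage choice. In serum, cells of both states coexist in a dish, so that levels of naive and formative genes are known to differ among lines and cultures.

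Depth was 3704162 and 2586294 counts in the RGM libraries, 7072697 in V6.5 and 5538788 in Cas9-GFP. A floor of 3 counts corresponded to 0.810 and 1.16 CPM (counts scaled to a common library size) in the RGM libraries and to 0.424 and 0.542 CPM in the others, for counting error only. All 8 identity markers of embryonic stem cells were measured in each library, with summed levels of 5895 and 6448 CPM in RGM, 6684 in V6.5 and 5406 in Cas9-GFP. Sox2 lay between 437 and 570 CPM and Utf1 between 942 and 1088 CPM, with overlap between the groups for both. Markers of feeder fibroblasts summed to 8382 and 7366 CPM in the RGM libraries, 4984 in V6.5 and 4080 in Cas9-GFP, and none of the 38 listed rows was at 0. Gzf1, wild type in these 4 libraries, was at 28.7 and 29.8 CPM in RGM, 8.15 in V6.5 and 18.6 in Cas9-GFP, and was called higher in RGM (log2 fold change 1.14, SE 0.35, adjusted p = 0.026). In the 5 knockout libraries it was at 5.42 and 14.1 CPM (RGM) and at 1.67, 9.37 and 5.23 CPM (V6.5), so that 2 of them lay above wild-type V6.5. The labels do not state that libraries are separate cultures, so the p-values below refer to the spread among these libraries only, which may be technical.

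A broad share of the measured transcriptome separated RGM from the run1 lines, in both directions and by amounts far above the difference between the RGM libraries. Of 12613 genes tested, 4704 (37.3%) passed the threshold of an adjusted p of 0.05 (edgeR quasi-likelihood test, Benjamini-Hochberg adjustment), 2310 higher in RGM (18.3%) and 2394 lower (19%). At least 2-fold changes were found for 1428 higher and 1251 lower genes, and at least 4-fold changes for 403 and 391. Counted without a model, over genes at 20 CPM or more in the higher library of a pair, 6 of 7475 genes (0.0803%) differed at least 2-fold between the RGM libraries and 171 of 7564 (2.26%) between V6.5 and Cas9-GFP. Between an RGM and a run1 library the share was 16.9% to 19.8%, from 1349 to 1560 genes. The run1 group, which joins 2 lines, thus held the wider spread. The number of calls depended on which library estimated that spread: without RGM replicate 1 or 2 it was 2028 or 2159, and without V6.5 or Cas9-GFP it was 6698 or 6650. With the feeder marker level as a further term, which leaves 1 residual degree of freedom, 584 genes passed (275 higher, 309 lower).

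**Figure D1:**
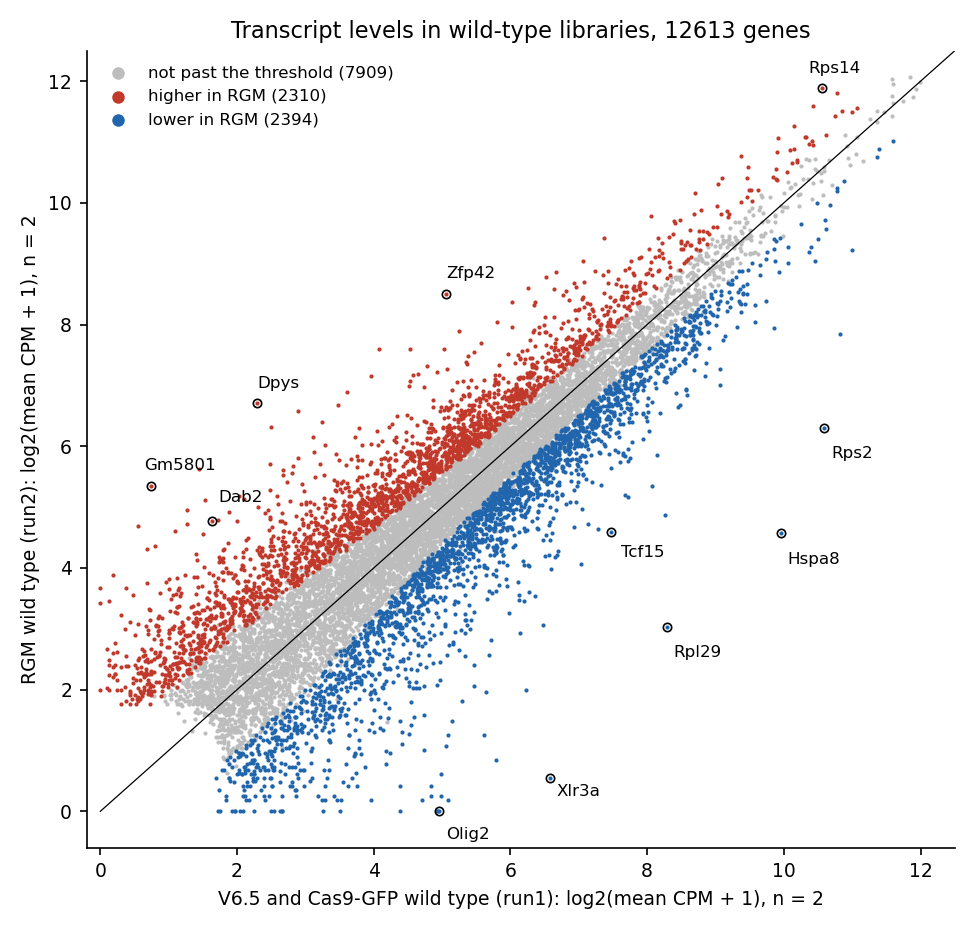
Mean level of each of 12613 tested genes in the V6.5 and Cas9-GFP libraries (horizontal, log2(mean CPM + 1)) and in the RGM libraries (vertical), with genes past the threshold in red (2310 higher in RGM) or blue (2394 lower) and the rest in grey. The calls spread to both sides of the diagonal at all levels, with Zfp42 and Dpys far above it and Hspa8, Rps2, Rpl29 and Xlr3a far below.

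The genes named from here on were mostly chosen by adjusted p or by size with no overlap between the groups, so that a lack of overlap among them follows from the choice. Among the genes highest in RGM relative to run1 were enzymes and surface proteins that are not part of the pluripotency network. Dpys, which encodes dihydropyrimidinase of pyrimidine breakdown, was at 97.1 and 109.7 CPM in RGM, 5.38 in V6.5 and 2.45 in Cas9-GFP. It was high in both RGM libraries and low in both others, 25.2-fold apart (log2 fold change 4.66, SE 0.29, adjusted p = 1.1e-05). Naaa, a lysosomal enzyme that cleaves N-acylethanolamines, was at 178.5 and 208.9 CPM in RGM against 20.4 and 11.5 CPM in V6.5 and Cas9-GFP. Pmel, the fibril protein of melanosomes, was at 92.8 and 96 CPM against 5.38 and 7.53 CPM, and Gchfr, which regulates GTP cyclohydrolase, at 74.9 and 81.9 CPM against 3.59 and 5.65 CPM. For these genes the groups were far from overlapping. Fcgr3, an Fc receptor of immune cells (log2 fold change 4.34, SE 0.41), Mogat2, an acyltransferase of fat absorption (4.16, SE 0.33), Aspn, a matrix proteoglycan of connective tissue (4.49, SE 0.46), and Dab2, an endocytic adaptor (3.62, SE 0.34), were lower in level, between 19.2 and 36.1 CPM in RGM. AA465934, a noncoding locus at 83291699 to 83294632 on chromosome 11, stood at 53 and 44.3 CPM in RGM against 1.93 and 1.51 CPM.

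Genes highest in run1 relative to RGM included several that were at or near 0 in RGM. Olig2, a transcription factor of motor neuron and oligodendrocyte progenitors, had 0 counts in both RGM libraries and 192 and 178 counts (26.5 and 33.5 CPM) in V6.5 and Cas9-GFP, at least 30.5-fold lower in RGM against the floor of 3 counts per library. Its neighbour Olig1 had 1 count in RGM in all and 37.7 and 28.4 CPM in run1, a ratio of 212 (95% exact binomial interval 37.8 to 8373). Such intervals, here and below, pool the counts of each group and cover counting error only, not the spread among libraries. AI662270, at 83223576 to 83226604 on chromosome 11 and so near AA465934, which went the other way, had 0 counts in RGM and 22.4 and 36.7 CPM in run1 (at least 30-fold lower). Ubd, a ubiquitin-like modifier induced by interferon, had 1 count in RGM in all against 21.7 and 28.4 CPM, 154-fold apart (95% exact binomial interval 27.4 to 6087). Rapgef4, a cAMP-activated exchange factor of Rap, had 3 counts in all against 26.5 and 35 CPM (62.9-fold, 21.3 to 306). Rnaset2b, a secreted ribonuclease, was at 0.270 and 0.392 CPM against 19.3 and 35.8 CPM, while its near-identical copy Rnaset2a was at 26.5 and 31 CPM in RGM and 28 and 45 CPM in run1 and did not pass (adjusted p = 0.32). In all, 19 called genes had 0 counts in both RGM libraries, 8 of them on the X chromosome, which held 432 of 12613 tested genes. Among those 8 were the related genes Xlr3b, Xlr3c, Xlr4a, Xlr4b and Xlr5a. The RGM libraries were shallower, with a mean floor of 0.985 CPM against 0.483 CPM in run1, so that 0 counts were easier to reach there. In run1, 3 called genes had 0 counts in both libraries. Those were Supt4b (40 and 32 counts in RGM, at least 24.2-fold higher), the RNA gene Rprl3 (44 and 19 counts, at least 20-fold) and 9430069I07Rik (12 and 7 counts).

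Members of the pluripotency network differed in both directions, and the 3 best known regulators differed little. Pou5f1, which encodes OCT4, was at 38.4 and 52.1 CPM in RGM and 45.7 and 39.5 CPM in run1 (log2 fold change 0.07, SE 0.21, adjusted p = 0.82). For Sox2 the log2 difference was 0.11 (SE 0.17, adjusted p = 0.64). Nanog was lower in RGM, at 622 and 696 CPM against 1088 in V6.5 and 797 in Cas9-GFP (-0.52, SE 0.18, adjusted p = 0.042). That call was lost without RGM replicate 1 (adjusted p = 0.34), RGM replicate 2 (0.15) or V6.5 (0.054), and also with upper-quartile scaling, all 9 libraries, thinned run1 libraries or the feeder term (adjusted p from 0.052 to 0.30). Of 20 core factors 2 were higher in RGM and 9 lower (55% called against 37.3% of all genes). The list's median log2 fold change was -0.50 (-0.17 without Cas9-GFP, 0.20 with the feeder term) where all tested genes had -0.02. The higher ones were Lin28a, an RNA-binding protein that blocks let-7 maturation, and Mycn, a MYC family factor. Lin28a was at 243 and 226 CPM in RGM and 75.2 and 106 CPM in run1 (1.37, SE 0.19), and Mycn at 278 and 326 against 137 and 116 CPM (1.25, SE 0.17). Among the lower ones were Tdgf1, the NODAL coreceptor CRIPTO, at 514 and 542 against 1445 and 1356 CPM, Dppa2 at 47.3 and 43.1 against 114 and 150.4 CPM, and Sall1 at 39.8 and 41.2 against 89.7 and 94.1 CPM.

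Naive markers differed in both directions, with more called lower than higher in RGM and Zfp42 far higher. Zfp42, which encodes the zinc finger protein REX1 and is a standard reporter of the naive state, was at 334 and 393 CPM in RGM and 32.6 and 32.2 CPM in V6.5 and Cas9-GFP. Both RGM libraries thus lay an order of magnitude above both run1 libraries (log2 fold change 3.48, SE 0.18, adjusted p = 3.0e-06). Of 23 naive markers 4 were higher, 10 lower and 9 did not pass (60.9% called against 37.3% of all genes), with a median of -0.54. With the feeder term the median was -0.17, with 1 called higher and 0 lower. Klf4, a STAT3 target that sustains the naive state, was at 193 and 196 CPM in RGM and 449 and 380.4 CPM in run1 (-1.10, SE 0.16). Tbx3 stood at 93.6 and 90.5 against 239 and 249.6 CPM, Fgf4, the ligand of the differentiation signal, at 104 and 105 against 289.5 and 244 CPM, and the lysosomal mannosidase gene Manba at 202 and 208 against 421 and 442 CPM. These 4 were about equally low in the 2 RGM libraries and high in both others. Esrrb (387 and 268 against 427 and 355 CPM) and Tfcp2l1 (181 and 175 against 196 and 134 CPM), chosen after their values were seen, overlapped between the groups.

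Formative and primed markers divided into a set that was higher and a set that was lower in RGM, 6 and 7 of 18. That is 72.2% called against 37.3% of all genes, with a median of 0.14. Otx2, a transcription factor that drives exit from the naive state, was at 54.1 and 53.7 CPM in RGM and 10.1 and 16.4 CPM in run1 (log2 fold change 2.04, SE 0.26, adjusted p = 0.00035). Lef1, a nuclear effector of Wnt signalling, was at 36 and 25.9 against 2.62 and 5.27 CPM (3.01, SE 0.36). In the other direction Tcf15, a basic helix-loop-helix factor of cells primed to leave the naive state, stood at 24.9 and 21.2 CPM in RGM and 155 and 197 CPM in run1. The ETS factors Etv4 and Etv5, which respond to FGF signalling, were also lower in RGM by -1.28 (SE 0.19) and -1.45 (SE 0.20). The list's median was 0.02 without RGM replicate 1, 0.25 without RGM replicate 2, 0.05 without V6.5 and 0.03 with the feeder term.

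**Figure D2:**
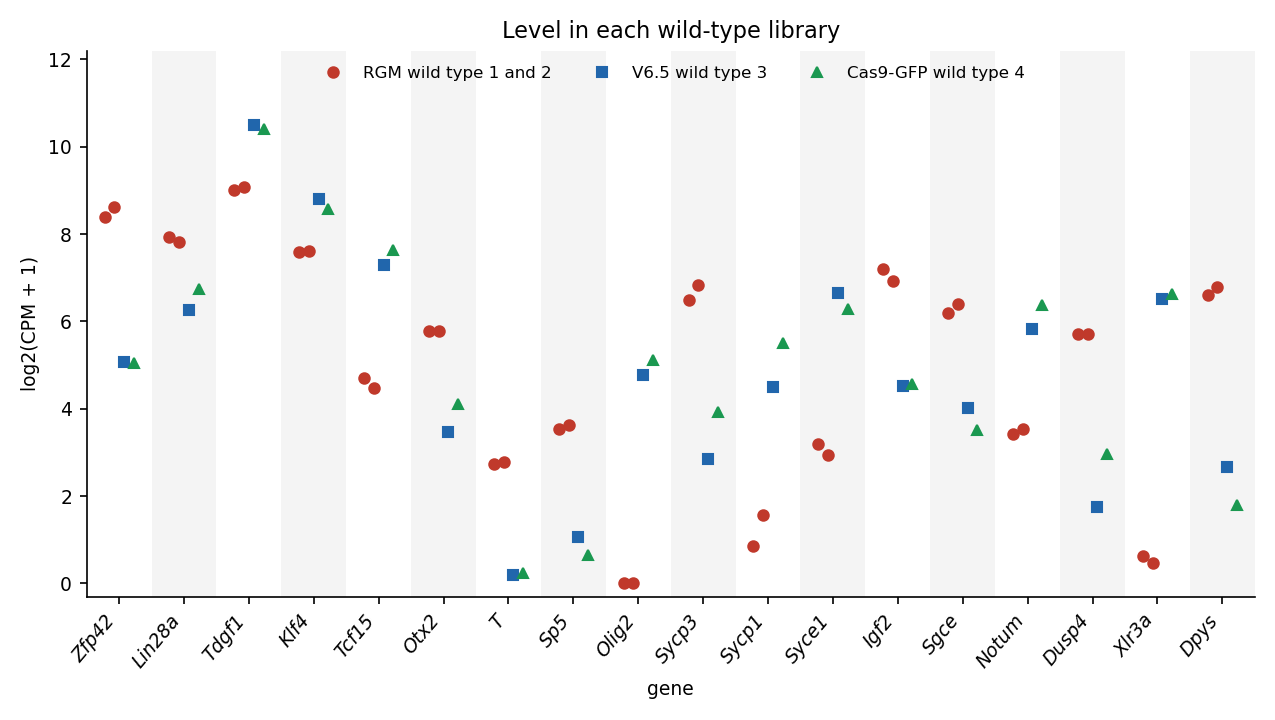
Level of 18 named genes in each wild-type library, as log2(CPM + 1), with red circles for the 2 RGM libraries, blue squares for V6.5 and green triangles for Cas9-GFP. The RGM points lie close together in each column and apart from both run1 points, with Olig2 at 0 in RGM and Zfp42 about equal in V6.5 and Cas9-GFP.

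Among genes of later lineages, several of primitive streak and Wnt response were higher in RGM. Of 11 tested mesendoderm genes 7 were higher and 1 lower (72.7% called against 37.3% of all genes). Their median log2 fold change was 0.94 (1.45 without Cas9-GFP). T, the brachyury factor of the primitive streak, had 21 and 15 counts in RGM (5.68 and 5.88 CPM) and 1 count in each run1 library, a ratio of 36.1 (95% exact binomial interval 9.29 to 309). Sp5, a direct Wnt target, was at 10.6 and 11.4 against 1.10 and 0.565 CPM (3.62, SE 0.47, adjusted p = 0.00040), Wnt3 at 2.97 and 6.27 against 0.552 and 0.376 CPM, Fgf8 at 10.8 and 7.84 against 0.690 and 2.45 CPM, and Axin2, a feedback inhibitor of the pathway, at 23.3 and 18.4 against 7.45 and 5.46 CPM. Several of the run1 values are within a few counts of the floor. Trophoblast and simple epithelium genes were called 6 higher and 2 lower of 17 (47.1% called, median 0.89, and 0.53 without RGM replicate 2). The tight junction gene Cldn6 led them at 83.3 and 95.6 against 16.8 and 21.8 CPM. The keratin gene Krt18 was at 37.9 and 42.7 against 5.80 and 14.3 CPM. Primitive endoderm genes were 5 higher and 1 lower of 15, which is 40% called and near the 37.3% of all genes (median 0.12, -0.10 without RGM replicate 1, 0.29 without RGM replicate 2, 0.43 without V6.5 and 0.26 without Cas9-GFP), with the laminin chain Lamb1 at 139.8 and 136 against 62.5 and 54.2 CPM. Feeder markers, too, were higher in RGM. With the feeder term the medians were 1.74 for mesendoderm, 0.99 for trophoblast and 0.41 for primitive endoderm genes, with 1, 2 and 0 members called higher.

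Neural genes went mostly the other way. Of 13 neuroectoderm genes 3 were higher and 7 lower (76.9% called against 37.3% of all genes), with a median of -0.94. It was -0.30 without RGM replicate 1, -0.27 without RGM replicate 2, 0.41 without V6.5, -0.31 without Cas9-GFP and -0.29 with all 9 libraries. Besides Olig1 and Olig2, the neuronal tubulin Tubb3 was lower in RGM (58.9 and 38.4 against 170.2 and 182 CPM, -1.84, SE 0.21) and so was Stmn2, a microtubule regulator of neurons (636 and 726 against 1359 and 1531 CPM, -1.09, SE 0.16). Dll1, a Notch ligand, was higher (22.4 and 30.2 against 3.45 and 7.15 CPM, 2.33, SE 0.37).

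Germline genes, many of which are silenced by promoter methylation in somatic cells, were largely lower in RGM. Of 26 tested, 14 were lower and 3 higher (65.4% called against 37.3% of all genes), with a median log2 fold change of -1.03. The list includes Zfp42, which is also on the naive list and is among the 3 higher. Syce1, a protein of the central element of the synaptonemal complex, was at 8.11 and 6.66 CPM in RGM and 99.7 and 76.4 CPM in run1 (-3.56, SE 0.25, adjusted p = 2.0e-05). Sycp1, the transverse filament of the same complex, was at 0.811 and 1.96 against 21.7 and 44.6 CPM (-4.65, SE 0.53), and Stra8, the retinoic acid-induced factor of meiotic entry, at 7.03 and 10.2 against 51.9 and 72.1 CPM (-2.87, SE 0.28). Sycp3, the lateral element protein of that complex, went against them at 89.2 and 112.9 CPM in RGM and 6.21 and 14.1 CPM in run1 (3.34, SE 0.32, adjusted p = 8.0e-05). Genes of a single structure therefore differed in opposite directions. With the feeder term the median of this list was 0.35.

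The promoters of these genes are shown because these genes include naive, germline and neural members that differed in opposite directions, and CpG sites in promoters are the target of DNA methylation. Each line gives 250 bases before to 50 bases after the transcription start, 5′ to 3′ on the gene's strand, from RefSeq on GRCm38.p6, with each CG in capitals. CG reads the same on both strands.
Zfp42 (chr8:43306960-43307259, minus strand): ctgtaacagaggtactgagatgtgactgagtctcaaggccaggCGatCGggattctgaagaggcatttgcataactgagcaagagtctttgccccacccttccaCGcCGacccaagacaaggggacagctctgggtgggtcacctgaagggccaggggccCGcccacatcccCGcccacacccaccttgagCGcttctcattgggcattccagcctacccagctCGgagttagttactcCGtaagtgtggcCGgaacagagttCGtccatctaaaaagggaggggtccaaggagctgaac
Sycp3 (chr10:88459337-88459636, plus strand): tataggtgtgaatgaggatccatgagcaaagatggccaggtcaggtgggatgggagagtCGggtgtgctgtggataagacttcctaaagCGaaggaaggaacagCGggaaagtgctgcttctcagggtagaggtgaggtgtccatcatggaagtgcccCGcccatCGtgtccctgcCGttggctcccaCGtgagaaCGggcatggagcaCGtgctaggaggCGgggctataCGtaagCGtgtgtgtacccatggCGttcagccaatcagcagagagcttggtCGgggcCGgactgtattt
Sycp1 (chr3:102936051-102936350, minus strand): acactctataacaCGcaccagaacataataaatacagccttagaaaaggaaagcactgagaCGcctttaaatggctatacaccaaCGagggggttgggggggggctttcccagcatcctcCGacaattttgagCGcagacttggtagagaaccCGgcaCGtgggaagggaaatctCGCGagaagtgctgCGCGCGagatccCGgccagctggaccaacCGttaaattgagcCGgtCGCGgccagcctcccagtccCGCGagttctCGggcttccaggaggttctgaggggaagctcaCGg
Syce1 (chr7:140787805-140788104, minus strand): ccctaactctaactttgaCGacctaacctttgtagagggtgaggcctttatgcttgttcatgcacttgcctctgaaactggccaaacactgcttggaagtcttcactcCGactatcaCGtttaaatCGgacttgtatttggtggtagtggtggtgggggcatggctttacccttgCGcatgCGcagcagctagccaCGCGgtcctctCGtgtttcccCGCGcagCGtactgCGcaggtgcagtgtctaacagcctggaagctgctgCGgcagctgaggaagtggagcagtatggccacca
Olig2 (chr16:91225300-91225599, plus strand): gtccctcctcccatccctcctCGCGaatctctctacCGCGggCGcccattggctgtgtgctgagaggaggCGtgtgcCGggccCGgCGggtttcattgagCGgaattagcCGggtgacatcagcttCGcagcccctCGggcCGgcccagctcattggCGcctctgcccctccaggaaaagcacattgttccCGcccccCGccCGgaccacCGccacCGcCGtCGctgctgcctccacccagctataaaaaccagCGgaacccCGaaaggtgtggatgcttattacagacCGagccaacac
The windows hold 11 CG in Zfp42, 15 in Sycp3, 21 in Sycp1, 14 in Syce1 and 25 in Olig2. The counts of the 2 genes higher in RGM, Zfp42 and Sycp3, and of the 3 lower ones thus overlapped. Across the 9339 tested genes with a promoter entry, 99.7% held at least 1 CG and the median was 21, against 94.4% and 7 over all 27025 genes in the table. Genes at least 4-fold higher in RGM had a median of 12 (253 genes) and those at least 4-fold lower 11.5 (262 genes). Windows with 5 CG or fewer made up 21.7% and 21% of these sets and 6.98% of all tested genes. These shares are a description of the sets, with no test, and a CG count says nothing of whether a site was methylated.

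Regulators of DNA methylation differed in both directions. Of 25 tested, 7 were higher and 2 lower, which is 36% called and near the 37.3% of all genes. Their median was 0.08, between 0.02 and 0.16 with each library left out, and -0.10 with the feeder term. Zfp57, the zinc finger protein that protects methylated imprints, was at 38.1 and 42.3 CPM in RGM and 119 and 199 CPM in run1 (log2 fold change -1.99, SE 0.25, adjusted p = 0.00035), and Tet2, a 5-methylcytosine oxidase, at 24.3 and 15.3 against 58 and 74.5 CPM (-1.72, SE 0.25). Dnmt3l, the cofactor of the de novo methyltransferases, was at 734 and 775 against 308 and 478 CPM (0.94, SE 0.20), and Gadd45b, linked to demethylation, at 106 and 106 against 34.1 and 33.3 CPM (1.65, SE 0.18). Polycomb subunits were 6 higher and 7 lower of 26 (50% called). Pcgf1, of the variant PRC1 complex that recognises CpG islands with KDM2B, was at 17.9 and 18.8 against 5.25 and 3.01 CPM. Rnf2, the ubiquitin ligase of PRC1, was at 70.3 and 79.2 against 132.5 and 192 CPM. The polycomb median of 0.17 was -0.004 without V6.5 and 0.31 without Cas9-GFP.

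Imprinted genes, which are expressed from the copy of one parent, differed in both directions. Of 47 tested, 8 were higher and 17 lower in RGM, which is 53.2% called where 37.3% of all genes were, with a median of -0.36. Igf2, a paternally expressed growth factor, was at 146 and 119.9 CPM in RGM and 21.8 and 22.6 CPM in run1 (2.58, SE 0.19, adjusted p = 2.4e-05). H19, the maternally expressed noncoding RNA beside it, was at 372 and 395 against 86.8 and 109.9 CPM (1.96, SE 0.17), in a row that also carries another symbol. Both genes of this pair were thus higher in both RGM libraries. Sgce, a sarcoglycan, was at 71.9 and 83.5 against 15.3 and 10.4 CPM, and Copg2, a coatomer subunit, at 99.2 and 99.9 against 31.6 and 24.8 CPM. Kcnq1ot1, the long RNA that silences its domain on the paternal copy, was lower in RGM at 17 and 10.6 against 49 and 49.3 CPM (-1.80, SE 0.25).

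X-linked genes were mostly lower in RGM, and the X chromosome had the lowest median of all chromosomes with more than 2 tested genes. Of its 432 tested genes 231 (53.5%) were lower in RGM and 21 (4.86%) higher, against 17.7% lower and 18.6% higher of 11610 autosomal genes. The median log2 difference was -0.81 on X and -0.001 on autosomes. It was negative in each stretch of 20 Mb along the chromosome, between -0.63 and -0.96, and in genes under 20 CPM (-0.95), from 20 to 100 CPM (-0.75) and at 100 CPM or more (-0.66). After the median of genes of like GC content was subtracted it was -0.77. Compared library by library, the RGM libraries were below V6.5 by -0.90 and -0.91 and below Cas9-GFP by -0.62 and -0.59, and V6.5 was above Cas9-GFP by 0.31. All 4 pairs between groups thus had the same sign, with the larger difference against V6.5.

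Several X-linked gene families were at 0 or near it in RGM. Xlr3a, of a multicopy family of chromatin-associated proteins, had 3 counts in RGM in all and 90.8 and 97.7 CPM in run1. The ratio was 196 (95% exact binomial interval 66.8 to 950.3, for counting error only). In the V6.5 knockout libraries Xlr3a was at 17.1, 104 and 6.38 CPM, and in those of RGM at 0.319 and 0 CPM. Xlr3c (11.9 and 47.8 CPM in run1, at least 30.3-fold lower in RGM) and Xlr4b (17 and 22.8 CPM, at least 20.2-fold) had 0 counts in both RGM libraries. These members share near-identical 3′ ends, so that reads could have been shared among them. Nxf3, of the RNA export factor family, and Gm9 had 1 count each in RGM and 16.8 to 39.9 CPM in run1. Xist, the RNA that coats the inactive X chromosome, was low in all 4 libraries, at 3.24 and 1.18 CPM in RGM and 5.38 and 4.33 CPM in run1. Its antisense partner Tsix was at 3.92 to 8.28 CPM, and without knowledge of strand in the counting the pair cannot be separated. Y-linked rows together held 55 and 37 counts in RGM and 47 and 38 in run1, so that such reads were present in every library. Scaled for depth these were 14.9 and 14.5 CPM in RGM against 6.49 and 7.15 CPM in run1. In knockout libraries they were 11.5 and 15.7 CPM in RGM and 6.96, 15 and 7.03 CPM in V6.5. The RNA helicase gene Ddx3y led them with 23, 6, 16 and 13 counts and did not pass (adjusted p = 0.17).

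Autosomes differed by less, but not evenly. Median log2 differences were highest on chromosomes 6 (0.30), 10 (0.26), 16 (0.22), 2 (0.22) and 13 (0.22) and lowest on chromosomes 7 (-0.20), 11 (-0.18) and 9 (-0.17). On chromosomes 10 and 13 each RGM library differed from each run1 library by about the same amount, between 0.24 and 0.28 and between 0.19 and 0.24. On chromosome 6 the difference was 0.16 and 0.17 from V6.5 and 0.49 and 0.48 from Cas9-GFP, and on chromosome 12 the sign turned with the line, at -0.30 and -0.27 from V6.5 and 0.08 and 0.09 from Cas9-GFP. V6.5 and Cas9-GFP, of the same run, were 0.33 apart on chromosome 6 and 0.35 apart on chromosome 12, whereas between the RGM libraries no autosome was more than 0.06 apart.

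**Figure D3:**
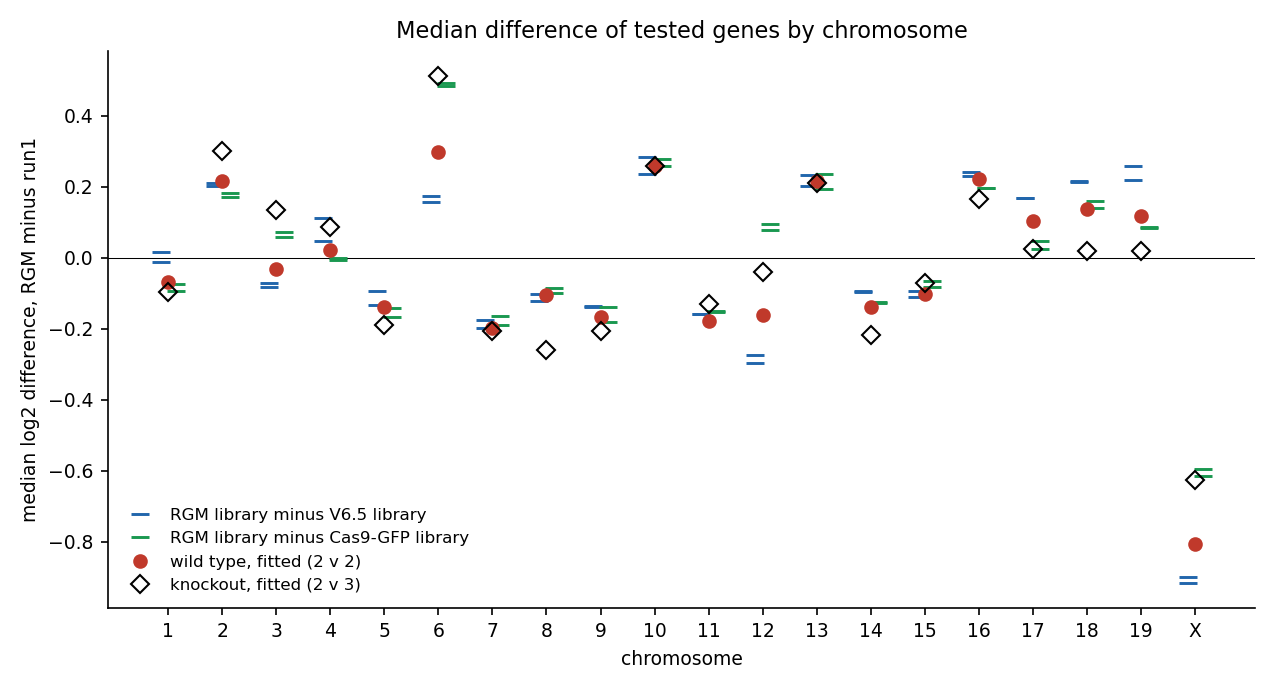
Median log2 difference between RGM and run1 over the tested genes of each chromosome, with filled circles for the wild-type fit, open diamonds for the knockout fit, and short bars for each RGM library minus V6.5 (blue) or minus Cas9-GFP (green). The X chromosome lies lowest at -0.81 in wild type and -0.62 in knockout libraries, and the blue and green bars part most on chromosomes 6, 12 and X.

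Signalling genes differed in both directions. Feeder markers were higher in RGM as well, and with the feeder term the medians were 0.37 for LIF, 0.22 for FGF, 1.05 for immediate early and 0.23 for interferon genes. In the LIF and STAT3 pathway 5 of 21 genes were higher and 2 lower, which is 33.3% called where 37.3% of all genes were (median 0.30, 0.14 without RGM replicate 2 and 0.07 without Cas9-GFP), with the kinase gene Jak2 at 11.6 and 14.9 CPM in RGM and 5.11 and 3.76 CPM in run1, and the AP-1 gene Junb at 227 and 256 against 153 and 127 CPM. In the FGF and ERK pathway 6 of 22 were higher and 7 lower (59.1% called, median 0.07). Dusp4, a phosphatase that inactivates ERK, was at 51.4 and 51.7 CPM in RGM and 2.35 and 6.78 CPM in run1 (log2 fold change 3.55, SE 0.37, adjusted p = 0.00013), and Fgfr2, a receptor, at 22.7 and 29 against 6.76 and 8.09 CPM, while Fgf4, Etv4 and Etv5 were lower as given above. Ligand and ETS targets were thus lower while this phosphatase and receptor were higher.

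Wnt pathway genes were called 10 higher and 4 lower of 23 (60.9% called, median 0.58), which includes the targets T, Sp5, Lef1 and Axin2. Notum, a secreted enzyme that inactivates Wnt ligands, was lower in RGM at 9.73 and 10.6 against 56.2 and 81.9 CPM (-2.77, SE 0.26), and so was Sfrp1, a secreted Wnt antagonist, at 60.6 and 56.8 against 199.5 and 180.5 CPM (-1.70, SE 0.17). These 2 antagonists were thus low in RGM, while Axin2, also an inhibitor, was high. The Wnt median was 0.33 without RGM replicate 1, and with the feeder term it was -0.02 and T, Sp5, Lef1, Axin2 and Notum did not pass. Nodal and BMP genes were 4 higher and 4 lower of 23 (median 0.01), which is 34.8% called where 37.3% of all genes were. Id2, a BMP target, was at 85.7 and 114 against 30.5 and 54.4 CPM, and the receptor Bmpr1a at 36.8 and 37.6 against 75.2 and 71.3 CPM.

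Immediate early genes, which are transcribed within minutes of a stimulus or of handling, were higher in RGM in 11 of 19 and lower in 2. That is 68.4% called against 37.3% of all genes. Their median was 0.69, and between 0.60 and 1.05 with each library left out or with the feeder term. Egr1 was at 199 and 198 CPM in RGM and 66.1 and 96.6 CPM in run1 (log2 fold change 1.29, SE 0.20), Fosb at 83.6 and 79.2 against 33.7 and 21.6 CPM (1.54, SE 0.22), Zfp36, an mRNA decay factor, at 60 and 54.9 against 19.7 and 18.1 CPM, and Ier5 at 41.4 and 41.2 against 7.18 and 13.7 CPM. These 4 genes were high in both RGM libraries, with harvest conditions of the runs not given in the sources used here. Interferon and MHC class I genes were higher in 9 of 19 and lower in 2 (57.9% called, median 0.57). B2m, the light chain of MHC class I, was at 248 and 213 against 92.1 and 76.6 CPM (1.45, SE 0.18), Ifitm1 at 572 and 526 against 282 and 196 CPM, and Isg15 at 11.9 and 17.6 against 2.35 and 3.95 CPM.

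Targets of p53 were lower in RGM in 9 of 27 and higher in 2, which is 40.7% called and near the 37.3% of all genes. Their median of -0.35 was -0.15 without Cas9-GFP and -0.12 with the feeder term. Perp, an apoptosis effector of the cell membrane, was at 8.65 and 11.4 CPM in RGM and 79.9 and 64.6 CPM in run1 (log2 fold change -2.88, SE 0.24, adjusted p = 4.0e-05). Bax, the pore-forming apoptosis protein, was at 194 and 233 against 440.1 and 659.9 CPM (-1.37, SE 0.21), Pmaip1, which encodes NOXA, at 37.1 and 54.1 against 148 and 118 CPM, and Zmat3 at 70.3 and 66.6 against 166 and 143 CPM. Each of these was low in both RGM libraries and high in both run1 libraries. Genes of the integrated stress response and serine synthesis were split, 5 higher and 6 lower of 29 (37.9% called, median 0.22, 0.14 without V6.5 and 0.11 without Cas9-GFP), with the X-linked arginine transporter Slc7a3 at 184 and 145 against 430.2 and 495 CPM and asparagine synthetase Asns at 719 and 772 against 419 and 479 CPM. Heat shock and chaperone genes were 5 higher and 4 lower of 24 (median -0.01), which is 37.5% called and near the 37.3% of all genes. Inducible Hspa1a (27 and 27.4 against 6.76 and 8.85 CPM) and Hspa1b (53.5 and 65.1 against 14.4 and 25.8 CPM) were higher in RGM, and Hsph1, their nucleotide exchange factor, was lower at 108 and 118 against 361 and 402 CPM.

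Metabolic genes were split within each pathway. Of 36 glycolysis and hypoxia genes 12 were higher and 7 lower (52.8% called, median 0.04). Pkm and Ldha, the last enzymes of the pathway, were lower in RGM at 2066 and 2062 against 3108 and 3105 CPM and at 1790 and 1993 against 2694 and 2700 CPM, and the glucose transporter Slc2a1 was at 318 and 327 against 690.4 and 639.9 CPM. Aldoc, an aldolase isoform, was higher at 124 and 126 against 17.8 and 33.5 CPM (2.30, SE 0.27), as was Pdk1, which restrains entry of pyruvate into mitochondria, at 256 and 237 against 119 and 93.4 CPM. Pkm and Ldha differed by small amounts (-0.59 and -0.51) that were nonetheless larger than the spread within either group. Both calls were lost without RGM replicate 1 or 2, with all 9 libraries in the fit and with the feeder term. In the knockout fit the differences were -0.45 (adjusted p = 0.20) and -0.44 (adjusted p = 0.16). Of 31 genes of cholesterol and fatty acid synthesis 6 were higher and 4 lower (median 0.04), which is 32.3% called where 37.3% of all genes were. Hmgcs1, an early enzyme of the sterol branch, was higher (249 and 218 against 92.4 and 87.7 CPM), and Fasn, the fatty acid synthase, was lower (140.9 and 103 against 433 and 322 CPM). Subunits of oxidative phosphorylation were 18 higher and 7 lower of 74 (median 0.15), which is 33.8% called where 37.3% of all genes were. Among the higher ones were Sdhc at 415 and 479 against 139 and 186 CPM and Cox8a at 818 and 814 against 348 and 327 CPM. Genes of DNA replication and mitosis were 12 higher and 8 lower of 40 (50% called, median 0.16). The licensing factor Cdt1 was at 319 and 305 against 175 and 174 CPM. The polymerase subunit Pola1, which is X-linked, was at 38.9 and 44.7 against 108 and 82.2 CPM.

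Ribosomal protein genes differed in both directions, with a few very large falls. Of 79 tested, 27 were higher, 12 lower and 40 did not pass (49.4% called against 37.3% of all genes). The median was 0.30 (0.15 without RGM replicate 2, 0.64 with the feeder term), with a range from -5.47 to 1.57. Rps14 (3714 and 3846 against 1442 and 1561 CPM, log2 fold change 1.33, SE 0.15), Rpl22 (2933 and 3258 against 1167 and 1583 CPM) and Rpl32 (3445 and 3688 against 1965 and 1557 CPM) were among the most abundant transcripts of all. Against these, Rpl29 was at 5.41 and 9.01 CPM in RGM and 297 and 325 CPM in run1, and Rps2 at 81.4 and 74.1 against 1452 and 1634 CPM (-4.31, SE 0.18, adjusted p = 1.0e-06). Hspa8, the constitutive HSC70 chaperone, was in the same range at 19.2 and 26.3 against 846 and 1132 CPM (-5.46, SE 0.24). Both RGM libraries were far below both run1 libraries for these 3 housekeeping genes. Each has many near-identical copies in the genome by the last 300 bases of its transcripts, 33 for Rpl29, 41 for Rps2 and 8 for Hspa8, most of them processed pseudogenes without a row of their own in the table. Among genes with 5 copies or more, 10 of 178 (5.62%) were called at 8-fold or more, 9 of them lower in RGM, against 206 of 11522 (1.79%) of genes with no copy. Those 9 include Rpl29, Rps2 and Hspa8 themselves. They also include the X-linked Xlr3a, Xlr3c and Xlr4b, whose copies have rows of their own. With the rule for reads that match several copies not given in the sources used here, these levels are uncertain, and the part of such handling was not tested.

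The largest rises included copies as well. Gm5801, at 56010536 to 56011315 on chromosome 14, was at 41.6 and 38 CPM in RGM and 0.414 and 0.941 CPM in run1 (log2 fold change 5.90, SE 0.38, adjusted p = 1.2e-05), while Ube2j2, the ubiquitin-conjugating enzyme gene it copies, was at 141.7 and 140.7 against 125 and 181 CPM (adjusted p = 0.67). Gm1943, at 109340691 to 109340864 on chromosome 8, was at 25.4 and 24.3 against 0.552 and 0.376 CPM (5.63, SE 0.42), while its parent Wdr70 was at 61.4 and 78.8 against 73.4 and 76 CPM (adjusted p = 0.70). Supt4b, at 0 counts in run1, has the near-identical Supt4a at 50 and 42.7 against 57.7 and 53.1 CPM (adjusted p = 0.31). In all 3 pairs the first gene was called higher in RGM and its partner did not pass. Among long noncoding RNAs 8 of 20 were higher and 2 lower (50% called against 37.3% of all genes). Their median was 0.40, and 0.75 without Cas9-GFP. They were led by snoRNA hosts such as Gas5 (1184 and 1361 against 429.9 and 620.5 CPM) and Epb41l4aos (346 and 440.5 against 88.3 and 159 CPM).

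Feeder fibroblast markers were higher in RGM in 22 of 37 tested genes and lower in 2. That is 64.9% called against 37.3% of all genes, with a median log2 fold change of 0.84. The lysyl oxidase gene Lox was at 364 and 298 CPM in RGM and 64.5 and 63.1 CPM in run1 (2.38, SE 0.17), Thbs1 at 559 and 494 against 133 and 132 CPM, Col3a1 at 164 and 161 against 42.8 and 37.4 CPM, and Vim at 1428 and 1275 against 543 and 546 CPM (1.31, SE 0.15). Every one of these was higher in both RGM libraries. In bulk RNA more fibroblasts and more of these transcripts per stem cell cannot be told apart. Leukocyte markers had 2 tested members, of which Cd68 was higher (37.3 and 38 against 13.9 and 16.4 CPM) and Laptm5 lower, and summed to 81.7 to 142 CPM over 13 rows. Endothelial markers had 1 higher and 1 lower of 7 (28.6% called where 37.3% of all genes were).

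**Figure D4:**
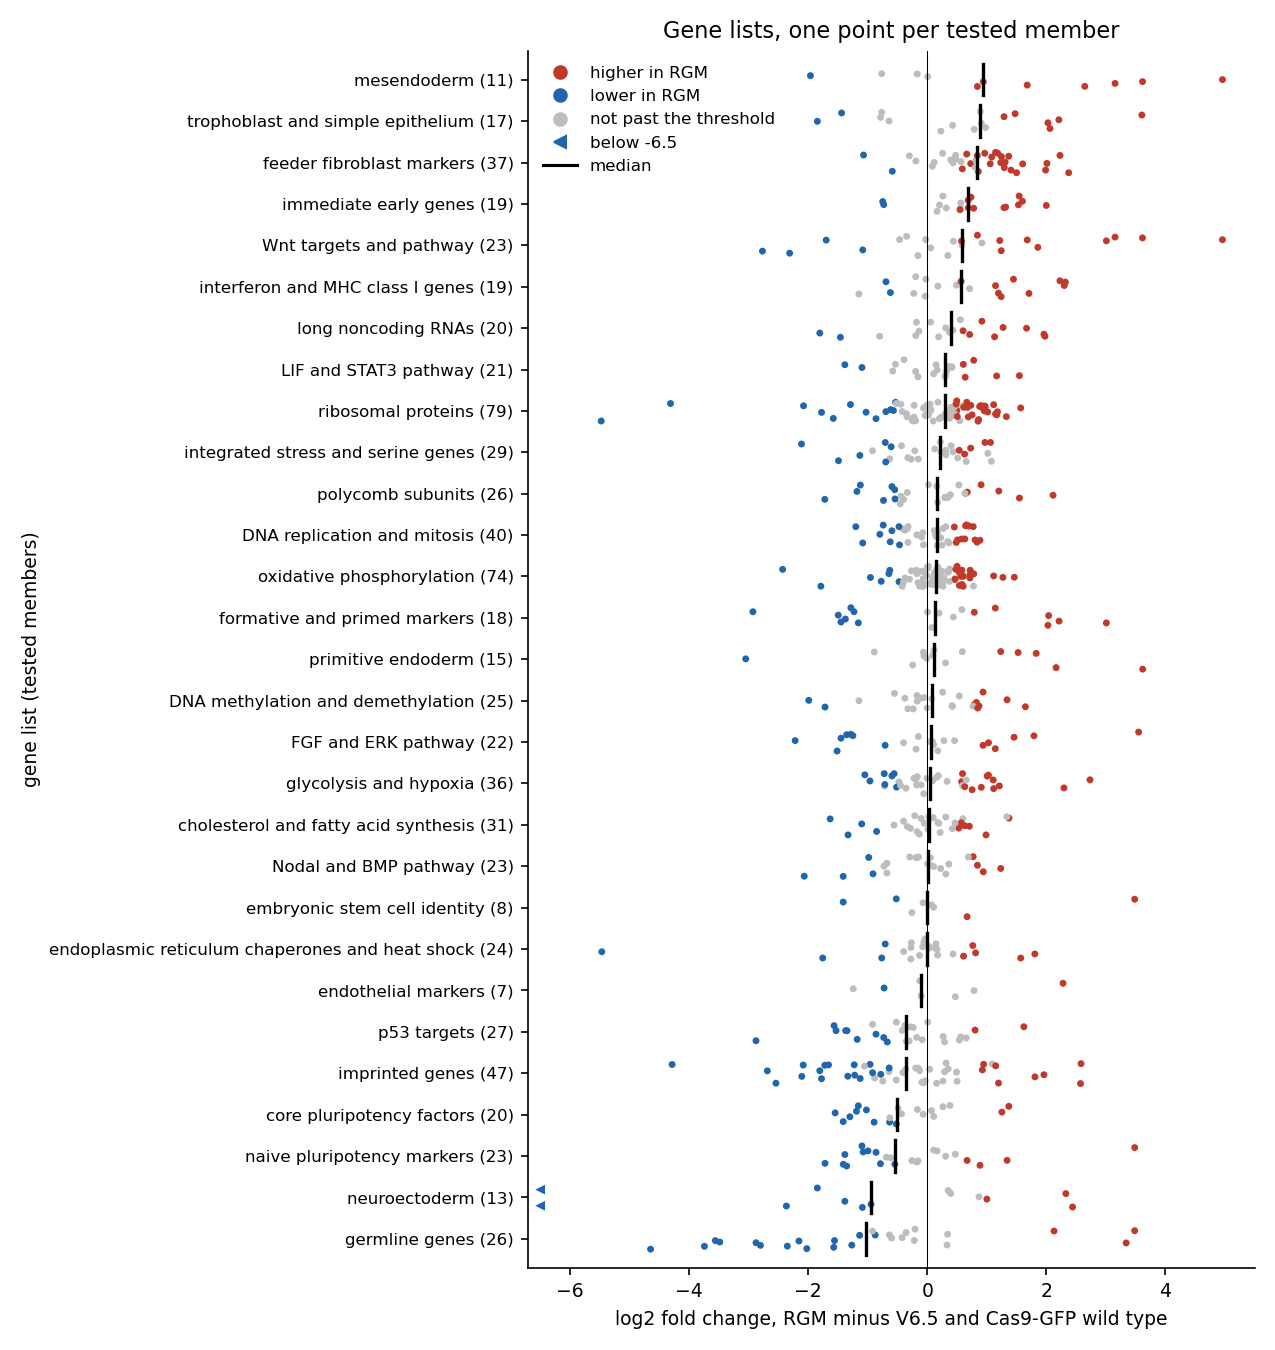
Log2 fold change between RGM and run1 of each tested member of 29 gene lists, ordered by the list's median (black bar), with red and blue for members past the threshold and grey for the others. Mesendoderm, trophoblast, feeder and immediate early lists lie to the right, germline and neuroectoderm lists to the left, most lists hold members of either colour, and Olig1 and Olig2 are drawn as triangles at the left edge.

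Within run1, V6.5 and Cas9-GFP differed at few genes, and with 1 library of each there is no test. Rps19-ps3, a pseudogene copy of Rps19, was at 7.45 CPM in V6.5 and 116 CPM in Cas9-GFP, with RGM at 100.1 and 85.8 CPM. In the V6.5 knockout libraries it was at 7.1, 77.4 and 147 CPM, so that its level also varied within a line. St8sia1, a sialyltransferase of ganglioside synthesis, was at 21 CPM in V6.5 and 3.76 CPM in Cas9-GFP, with RGM at 7.03 and 9.01 CPM. Jdp2, an AP-1 repressor, was at 50 CPM in V6.5, 12.6 CPM in Cas9-GFP and 14.9 and 17.6 CPM in RGM, and Rhox6, an X-linked homeobox gene, at 32.9, 7.72, and 24.3 and 31.7 CPM in that order. The small RNA genes Snora44 (2.62 and 26.9 CPM), Snora81 (2.76 and 21.8 CPM), Mir1895 (1.24 and 33.5 CPM, in a row that also names 2 other transcripts) and Mir1949 (3.73 and 24.5 CPM) were higher in Cas9-GFP (V6.5 first). For genes of this kind the run1 mean describes neither line.

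The knockout libraries, which share no library with the wild-type comparison, gave fewer calls, and those shared with wild type had the same direction. Between 2 RGM and 3 V6.5 knockout libraries 2048 of 12903 genes passed (15.9%), 1040 higher in RGM (8.06%) and 1008 lower (7.81%). Of 12424 genes tested in both fits, 1802 were called in both in the same direction and 0 in opposite directions. The genes shared made up 40.5% of the 2257 wild-type rises and 89.2% of the 1023 knockout rises, and 37.8% of the 2349 wild-type falls and 90.6% of the 981 knockout falls. Of the genes at least 4-fold apart in wild type, 240 of 358 rises (67%) and 221 of 353 falls (62.6%) were called again. The knockout count rested on each RGM knockout library, since without replicate 1 or 2 it was 170 or 165, and it was 1342 without knockout replicate 3.

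Named genes had values close to each other in both fits in some cases and far apart in others. The log2 difference between the knockout libraries was 3.14 for Zfp42, 4.64 for Dpys, 6.27 for Gm5801 and 1.73 for Otx2. It was -5.14 for Hspa8, -4.86 for Rps2, -6.73 for Rpl29, -3.07 for Syce1 and -2.70 for Tcf15, and Olig2 again had 0 counts in RGM and 27.7 to 39.5 CPM in V6.5. Others were smaller there and did not pass, such as Aldoc (1.11, adjusted p = 0.21), Manba (-0.45, adjusted p = 0.38), Slc7a3 (-0.73, adjusted p = 0.14), Egr1 (0.52, adjusted p = 0.16), Fosb (0.48, adjusted p = 0.18), Tbx3 (-0.78, adjusted p = 0.14) and Nanog (-0.15, adjusted p = 0.62). Fitted together, the line and run difference itself differed between genotypes in 0 of 13342 genes (0%; edgeR; 194 at an unadjusted p under 0.05, and 0 by DESeq2 and by limma voom), so a smaller value in knockout cells is not shown to be a difference. Members of the feeder list were called 16 higher and 0 lower of 38 (median 0.93), and the X chromosome again had the lowest median at -0.62, with 89 of 432 genes lower (20.6%) against 7.28% on autosomes. Xlr3c and Xlr4b, near 0 in RGM knockout cells, were at 1.53, 63.5 and 0.817 CPM and at 1.11, 22.5 and 0.981 CPM in V6.5 knockout cells, so that these X-linked genes also varied among libraries of the same line and run.

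**Figure D5:**
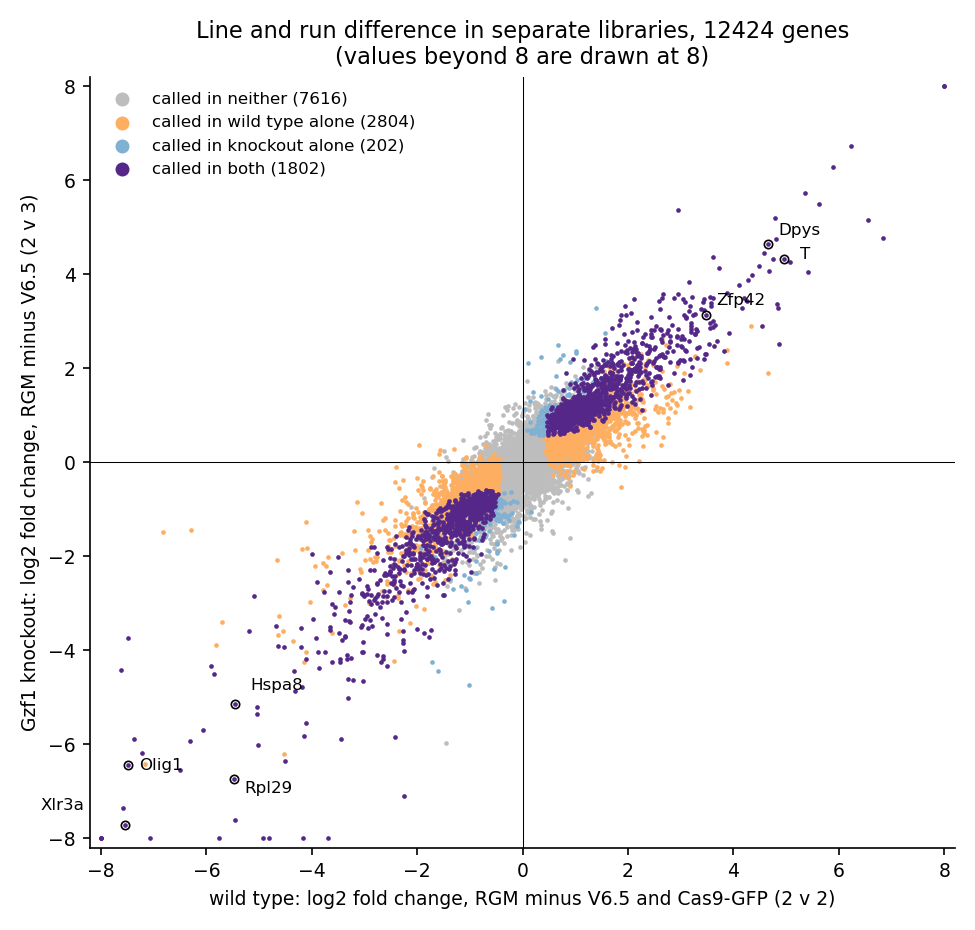
Log2 fold change between RGM and run1 in wild-type libraries (horizontal) and between RGM and V6.5 in Gzf1-knockout libraries (vertical) for 12424 genes, with purple for the 1802 called in both, orange for wild type alone (2804) and light blue for knockout alone (202). Purple points occupy the 2 quadrants of equal sign. For 10 genes a value beyond 8 is drawn at 8.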

How the data were processed

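The deposited table holds raw counts per gene symbol, made by the authors and whole-numbered with a different total in each library. STAR, DESeq2 and the build mm10 are listed in the submitters' processing notes without roles or versions. The assignment of reads to genes, the use of strand and the treatment of molecular identifiers: not given in the sources used here. Of 30324 rows, 92 spike-in rows were dropped and 1858 (6.15%) joined several symbols, among them those of AA465934, Rnaset2b, H19, Laptm5, Junb, Jak2, B2m and Mir1895.

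The 4 wild-type libraries were fitted alone, with the line and run group as the only term. edgeR 4.0.16 in R 4.3.3 was used with TMM factors, filterByExpr (minimum count 10), the robust quasi-likelihood F test and Benjamini-Hochberg adjustment at 0.05, and every adjusted p comes from it unless another tool is named. The standard error of a log2 fold change is its size divided by the square root of F. The knockout libraries had a fit of their own, and the difference between genotypes came from all 9 libraries in 4 groups. CPM values use TMM factors of all 9 libraries. With 2 libraries against 2, an exact permutation over samples cannot reach the threshold and was not used. Alternatives were other scalings and filters, DESeq2 1.42.0, limma 3.58.1 voom, thinned run1 libraries, a feeder term, rows with 1 symbol alone and the loss of each library. The fits were tested on simulated counts.

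Positions are from GENCODE M21 on GRCm38 (mm10), which matched 12044 tested rows (95.5%). Copies are transcripts with at least 95% identity over 100 bases or more of a gene's last 300 bases. The members and the 31 gene lists were chosen with earlier results of these data known. Named genes are the 12 largest called rises and falls with at least 20 CPM in the higher group and no overlap, the 10 most abundant called genes, up to 5 members of each list by adjusted p, then level, the 5 largest differences in each direction between V6.5 and Cas9-GFP, called genes with 0 counts in one group, and sex-linked genes. Parents of copies, Gzf1, Pou5f1, Sox2, Tfcp2l1 and Esrrb were added after their values were seen.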

Additional observations from a re-analysis of the deposited data

How the results depend on the processing

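The number of genes differing between wild-type RGM and run1 libraries (4704) ranged from 2028 to 6698 when 1 library was left out, was 3086 with all 9 libraries in the fit and 584 with a feeder term. Over the scaling, filter and tool alternatives it stayed within 1.5 times, and upper-quartile scaling moved the split to 2500 higher and 2141 lower. The number between knockout RGM and V6.5 libraries (2048) ranged from 165 to 2653 when 1 library was left out and was 3697 with limma voom and 3187 with all 9 libraries. Calls shared by both fits numbered 2920 with voom, against 1802. The difference between genotypes had 0 calls, and 1 without the low-count filter. With the replicate number of all 9 libraries as a block it had 0 calls, with 419 genes at an unadjusted p under 0.05. In that fit 1 block joined wild-type Cas9-GFP with knockout V6.5, so that it mixed lines. The wild-type groups share no replicate number, so no paired fit of that comparison was possible. Of 167 named called genes, 63 kept their call and direction with the feeder term. Of the 166 tested without RGM replicate 1 or 2, 24 and 30 missed the threshold. The sign of St8sia1 turned between leaving out Cas9-GFP (-1.42) and V6.5 (1.05). With the feeder term, which has 1 residual degree of freedom, signs turned for Dppa5a (-0.012), Sox7 (0.41), Rnf2 (0.075), Gbx2 (0.65), Bax (0.014), Mir1895 (11.4), Snora44 (5.41) and Snora81 (3.61). The cause of these changes was not tested. List medians near 0 (FGF, Nodal and BMP, chaperone, glycolysis, cholesterol and endothelial lists) changed sign under at least 1 alternative. So did those of the primitive endoderm, polycomb and DNA methylation lists. Larger medians turned with the feeder term, to 0.20 (core factors), 0.35 (germline), -0.02 (Wnt) and -0.17 (feeder markers, whose level is that term). The neuroectoderm median turned to 0.41 without V6.5. Depth limits genes near 1 CPM in RGM.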
